A study of Mus musculus with 36 samples.

Results

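The transcripts of 10 ligands through which tumor cells and myeloid cells regulate T cells were measured in 36 mouse tumors. The members were chosen by name from 37417 genes in the count table. They were Cd274 and Pdcd1lg2 (the ligands of PD-1), Cd80 and Cd86 (the ligands of CD28 and CTLA4), Lgals9 (galectin-9), Pvr and Nectin2 (ligands of TIGIT and CD226, and Pvr also of CD96), Vsir (VISTA), Icosl (the ligand of ICOS) and Tnfsf9 (the ligand of 4-1BB). Levels are given as CPM, the share of a library's gene counts that fell on 1 gene, scaled to a fixed total.

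The study profiled subcutaneous tumors of 3 established cell lines, MC38, CT26 and PancO2, after treatment with antibodies against immune checkpoints. According to the labels, wild type mice aged 12 weeks received 10 mg/kg of control IgG, anti-CTLA4 or anti-PD-1 into the peritoneum, and bulk RNA was taken at end stage from 4 tumors of each of the 9 combinations. The label strain was C57BL/6J for MC38 and PancO2 and BALB/c for CT26. Each model is 1 transplanted line, and tumor cells and host cells were extracted together.

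T cells become active when their antigen receptor and a costimulatory receptor such as CD28 are engaged together. CD80 and CD86 on antigen-presenting cells engage CD28 and also its inhibitory rival CTLA4, whereas PD-L1 (Cd274) and PD-L2 (Pdcd1lg2) engage the inhibitory receptor PD-1. Interferon-gamma, which activated T cells and NK cells secrete, is a known inducer of Cd274 in tumor and myeloid cells. PVR and nectin-2 restrain T cells through TIGIT and stimulate them through CD226. VISTA is carried mainly by myeloid cells, and the ligands of ICOS and 4-1BB are costimulatory.

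Expression in the libraries went against their labels. H2-Ea-ps encodes the alpha chain of the class II molecule I-E, which BALB/c mice express and C57BL/6 mice do not. It measured 32.8 to 134 CPM in 12 libraries and at most 0.0845 CPM in the other 24. Of those 12, 8 were labelled C57BL/6J, and 8 libraries labelled BALB/c lacked the transcript, a mismatch between label strain and transcript in 16 of 36 libraries. The ferroxidase gene Cp was above 1000 CPM in 12 further libraries (1389 to 2168 CPM) and lay between 255 and 611 CPM in the remaining 12. These H2-Ea-expressing, Cp-high and remaining libraries formed 3 classes drawn from the data and not from the study, and 8 of 9 labelled groups held all 3 of them. Differences between classes are therefore given as descriptions with no test. Gene counts per library ranged from 7883106 to 41751023. PancO2 anti-PD-1 71 was the shallowest library and stood apart, with 15.7% mitochondrial counts against 2.80% to 4.35% in the other 35, and it was left out of all correlations. In bulk tissue, fewer cells of a type and less RNA per cell cannot be told apart.

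The ligands of PD-1 were led by Cd274, which lies on chr19:29367455-29388095 (GRCm38, plus strand) next to Pdcd1lg2 at chr19:29410919-29471161. Cd274 measured 17.8 to 206 CPM over the 36 libraries, an 11.6-fold range. The lowest, median and highest values were 35.8, 56.8 and 204 CPM in H2-Ea-expressing libraries, 41.1, 67.7 and 206 CPM in Cp-high libraries, and 17.8, 34.7 and 60.9 CPM in the remaining libraries. The classes overlapped, and the spread within the Cp-high class alone covered most of the range. The 204 CPM belonged to the library labelled PancO2 anti-PD-1 71, and without it the highest H2-Ea-expressing value was 95.4 CPM. B cell markers (5 genes) summed to 37.2 CPM in that library and to at most 6.35 CPM in any other. Its sums of dendritic cell markers (82.3 CPM) and neutrophil markers (115 CPM) were also the highest of its class, and that of T cell markers (50.7 CPM) was not. The part of these cells in its Cd274 level was not tested. Pdcd1lg2 was scarce, with lowest, median and highest values of 0.507, 1.44 and 3.34 CPM in H2-Ea-expressing libraries, 0.555, 2.38 and 4.80 CPM in Cp-high libraries, and 0.282, 0.965 and 4.82 CPM in the remaining libraries, from 4 to 148 counts each. Both ligands had their lowest median in the remaining libraries. Of the exon bases of Cd274, 14.1% overlap another annotated gene, AC119228.1, which was not among the counted genes. Counts on these bases are uncertain because the use of strand in counting is not stated.

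The ligands of CD28 and CTLA4 took opposite positions in the H2-Ea-expressing class. Cd80 (chr16:38455561-38496335, plus strand) measured 18.99, 24.3 and 30.5 CPM at the lowest, median and highest H2-Ea-expressing library, against 4.78, 7.60 and 13.002 CPM in Cp-high and 4.33, 7.22 and 10.7 CPM in the remaining libraries. Its lowest H2-Ea-expressing library lay above every library of both other classes, and the ratio of medians was 3.20 over Cp-high and 3.37 over the remaining libraries. Cd86 (chr16:36603869-36666081, minus strand), on the same chromosome, measured 9.16, 11.4 and 16.5 CPM in H2-Ea-expressing, 20.01, 29.6 and 42.3 CPM in Cp-high, and 17.8, 21.97 and 30.4 CPM in the remaining libraries. It was lower in all 12 H2-Ea-expressing libraries than in any other library, and the Cp-high median was 2.60 times theirs. The RefSeq promoter window of Cd80 (GRCm38.p6, chr16:38458683-38458932, plus strand) holds the 250 bases before the RefSeq start. That start lies inside the gene span given above and is not the first base of that span. The window is shown because Cd80 is one of 2 members with a match to a searched motif, here the AP-1 letters TGANTCA in capitals, 42 bases before the RefSeq start:
Cd80: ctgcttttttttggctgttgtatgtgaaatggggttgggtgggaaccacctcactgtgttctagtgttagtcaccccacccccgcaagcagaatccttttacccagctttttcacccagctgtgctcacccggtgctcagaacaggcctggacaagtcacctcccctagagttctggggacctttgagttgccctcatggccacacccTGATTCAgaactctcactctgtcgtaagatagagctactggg

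Of the ligands of inhibitory receptors on exhausted T cells and NK cells, galectin-9 and the nectin family differed in their pattern. Lgals9 (chr11:78962974-78984946, minus strand), which encodes the secreted lectin that binds TIM-3, measured 54.04, 66.4 and 88.2 CPM in H2-Ea-expressing, 108, 135 and 169 CPM in Cp-high, and 89.1, 106 and 128 CPM in the remaining libraries. The H2-Ea-expressing values lay below all others, and the Cp-high median was 2.03 times theirs. Pvr (chr7:19903578-19921160, minus strand) measured 144, 192 and 264 CPM in H2-Ea-expressing, 51.6, 83.5 and 156 CPM in Cp-high, and 34.8, 53.3 and 75.8 CPM in the remaining libraries. Every H2-Ea-expressing library was above every remaining library, with a ratio of medians of 3.61, and only the top of the Cp-high range reached into the H2-Ea-expressing range. Nectin2 (chr7:19716644-19750483, minus strand), the other ligand of this family, measured 12.8, 21.3 and 25.9 CPM in H2-Ea-expressing, 15.97, 18.4 and 22.5 CPM in Cp-high, and 30.5, 36.6 and 38.5 CPM in the remaining libraries. It was highest in the class where Pvr was lowest, and the median of the remaining libraries was 1.99 times that of the Cp-high libraries.

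The window of Lgals9 held the only match to the core of the interferon-stimulated response element (ISRE) among the members. It is printed for that reason (GRCm38.p6, chr11:78984947-78985174, minus strand, without the 22 bases next to the start that lie in an exon), with the match in capitals, 55 bases before the start:
Lgals9: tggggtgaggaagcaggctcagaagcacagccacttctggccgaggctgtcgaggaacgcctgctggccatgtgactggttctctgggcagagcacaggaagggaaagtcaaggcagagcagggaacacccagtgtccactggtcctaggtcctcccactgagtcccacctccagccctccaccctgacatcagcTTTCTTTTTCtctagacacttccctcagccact
Windows were found for 7 of 10 members, and not for Cd86, Pvr and Tnfsf9. Searched on both strands, the interferon-gamma activated site (GAS) letters TTCNNNGAA were in 7.01% of all 32817 windows and in none of the 7, the ISRE core in 2.97% of all windows and 1 of the 7, and TGANTCA in 6.75% of all windows and 1 of the 7. The 3 patterns do not overlap in the printed sequences, and a match is a description of letters and not a binding site.

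VISTA, ICOS ligand and 4-1BB ligand each had another order. Vsir (chr10:60346851-60372684, plus strand) measured 26.5, 41.2 and 57.01 CPM in H2-Ea-expressing, 37.9, 50.2 and 82.7 CPM in Cp-high, and 71.9, 104 and 156 CPM in the remaining libraries. It was highest in the remaining libraries, at 2.53 times the H2-Ea-expressing median with no overlap and 2.08 times the Cp-high median with overlap. Icosl (chr10:78069302-78083913, plus strand) measured 4.42, 5.70 and 8.21 CPM in H2-Ea-expressing, 20.1, 25.4 and 38.7 CPM in Cp-high, and 18.2, 22.01 and 29.7 CPM in the remaining libraries. This was the largest ratio between class medians among the members, 4.46 for Cp-high over H2-Ea-expressing libraries. Tnfsf9 (chr17:57105325-57107757, plus strand) measured 9.26, 13.035 and 16.4 CPM in H2-Ea-expressing, 3.95, 9.03 and 14.5 CPM in Cp-high, and 3.88, 4.50 and 6.50 CPM in the remaining libraries. Its H2-Ea-expressing values lay above all remaining libraries, at 2.90 times their median, while the Cp-high libraries spanned both. An antisense noncoding gene, Gm11110, overlaps 14.9% of its exon bases, so that its counts are uncertain.

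**Figure D1:**
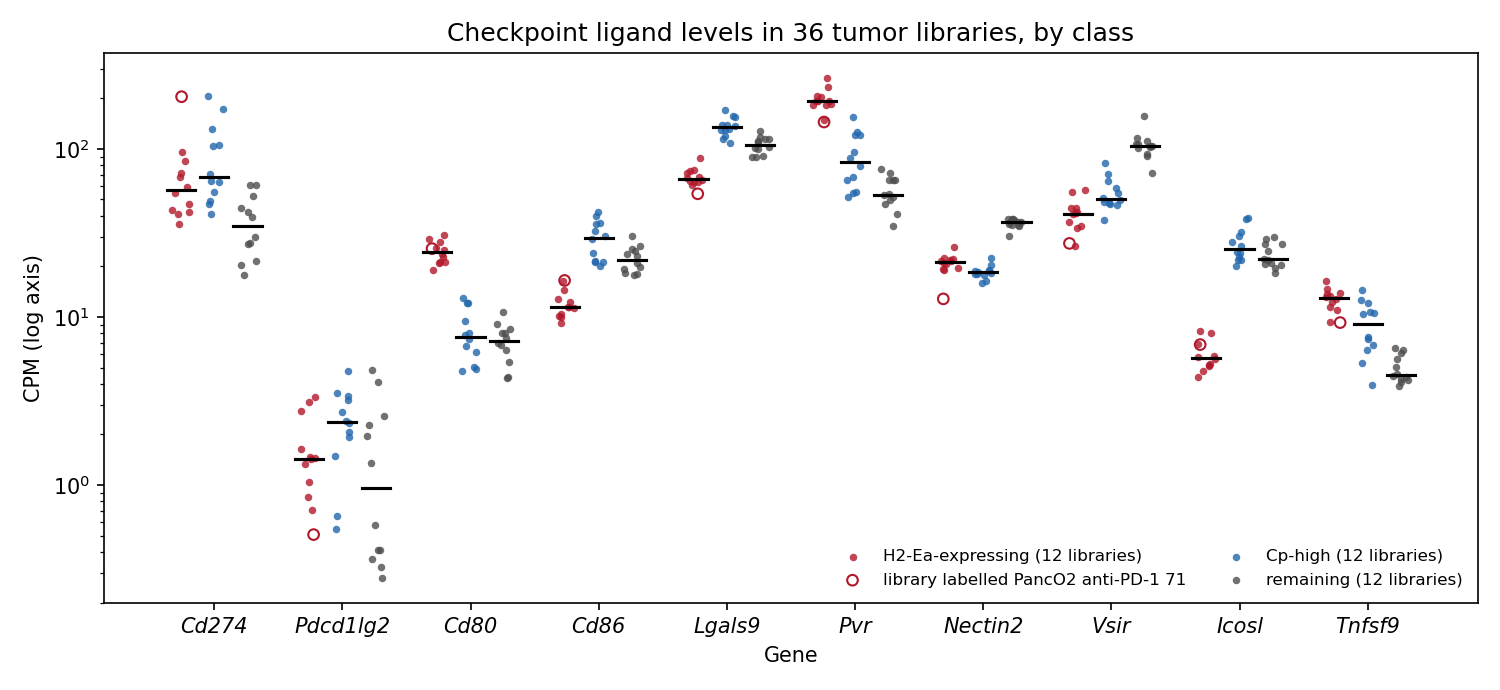
Level of each ligand gene (CPM, log axis) in the 36 libraries, by class; each point is 1 library, each bar the class median, and the open point the library labelled PancO2 anti-PD-1 71. Cd80 sits at 18.99 CPM or more in the H2-Ea-expressing libraries and at 13.002 CPM or less elsewhere, and Icosl does the reverse at 8.21 CPM or less against 18.2 CPM or more.

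Counted over the members, 4 of 10 had ranges that did not overlap between H2-Ea-expressing and Cp-high libraries (Cd80 higher, and Cd86, Lgals9 and Icosl lower, in H2-Ea-expressing), beside 31.0% of 15217 genes that exceeded 1 CPM in 4 or more libraries. Between H2-Ea-expressing and the remaining libraries the count was 8 of 10 (Cd80, Pvr and Tnfsf9 higher, and Cd86, Lgals9, Nectin2, Vsir and Icosl lower), beside 26.2% of genes. Between Cp-high and the remaining libraries it was 1 of 10 (Nectin2 lower in Cp-high), beside 30.2% of genes. Leaving out PancO2 anti-PD-1 71 changed none of these counts. The share of members was above the share of all genes in the second contrast and below it in the third. These shares rest on 10 genes chosen by name, and their difference from the share of all genes was not tested. The ligands of PD-1 overlapped in all 3 contrasts.

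Marker transcripts of host cells moved with the classes. The summed level of 9 macrophage markers was 1034 to 2051 CPM in H2-Ea-expressing libraries (median 1480), 1211 to 2147 CPM in Cp-high libraries (median 1821) and 1949 to 2853 CPM in the remaining libraries (median 2234). Vsir had the same order of medians. The sum of 8 dendritic cell markers was 20.9 to 82.3 CPM (median 28.5), 68.1 to 213 CPM (median 108) and 50.6 to 130 CPM (median 76.5) in the same order of classes. The 82.3 CPM belonged to PancO2 anti-PD-1 71. Ranked by median, the classes stood in the same order for Cd86, Lgals9 and Icosl. The sum of 9 T cell markers was 20.6 to 52.2, 55.0 to 174 and 6.51 to 107 CPM (medians 37.16, 77.19 and 38.97). That of 6 fibroblast markers was 1894 to 3861, 3207 to 6236 and 5631 to 12786 CPM (medians 2472, 4903 and 7778). Neutrophil markers (6 genes) had median sums of 26.25, 68.84 and 48.89 CPM. By median, T cell, neutrophil and epithelial markers shared the class order of dendritic cell markers, and fibroblast markers that of macrophage markers. The orders shared with ligands therefore do not single out a cell type. No marker of these lists was at 0 in every library of a class. Epithelial markers (5 genes) summed to 8.80 to 43.7 CPM in H2-Ea-expressing, 577 to 1186 CPM in Cp-high and 64.4 to 430 CPM in the remaining libraries, and 2, 4 and 2 of them had a class median above 1 CPM although all 3 lines are of carcinoma origin. The part of these cell types in the class levels of the ligands was not tested.

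Per kilobase of exon, which allows genes to be compared with each other, Lgals9 had the highest median of the ligand transcripts in Cp-high and remaining libraries, and Pvr and Lgals9 headed the order in H2-Ea-expressing libraries. In H2-Ea-expressing libraries, Pvr (median 31.4 CPM per kilobase) and Lgals9 (31.1) did not differ beyond their spread, with Pvr the higher of the pair in 6 of 12 libraries, and Cd274 followed at 15.7. In Cp-high libraries Lgals9 led at 63.0 and was above Cd274 (18.7) in all 12 libraries, with Pvr at 13.6. In the remaining libraries Lgals9 led at 49.6, followed by Vsir at 20.8, with no overlap between them or between Vsir and the next gene. That next gene was Nectin2 at 10.5, which did not separate from Cd274 at 9.57. Between Nectin2 and Cd274 each was the higher in 6 of 12 libraries. Pdcd1lg2 was the scarcest transcript in every class, with medians of 0.733, 1.21 and 0.492 CPM per kilobase in H2-Ea-expressing, Cp-high and remaining libraries.

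**Figure D2:**
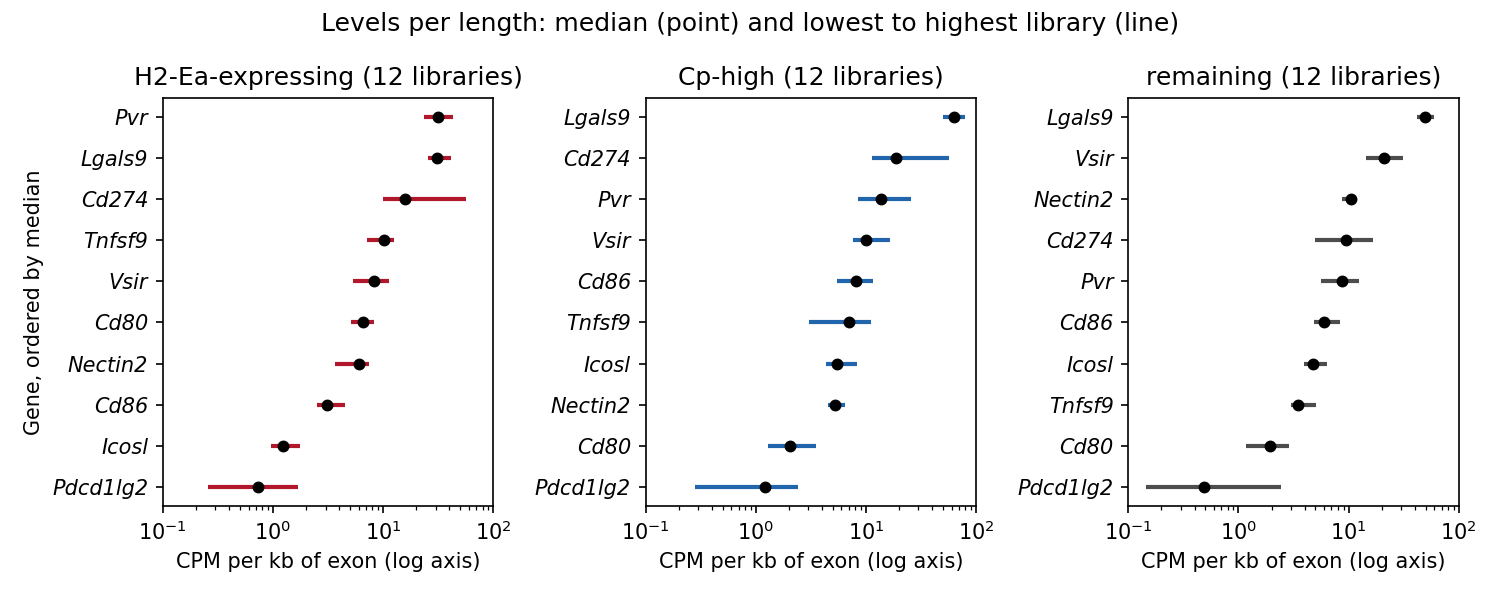
Median level of each ligand gene per kilobase of exon (CPM per kilobase, log axis) in the 3 classes, with lines from the lowest to the highest library. Lgals9 stands first in the Cp-high (63.0) and remaining (49.6) libraries and beside Pvr (31.1 and 31.4) in the H2-Ea-expressing libraries, and Pdcd1lg2 stands last in each.

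Within each class the members were then set against Ifng, which encodes interferon-gamma, Cd8a, which encodes a chain of the CD8 coreceptor of cytotoxic T cells, and Csf1r, the receptor that marks macrophages. Over 10 members, 3 measures and 3 classes, 90 relations were computed on log2 CPM, each with a permutation test over libraries, and p values were adjusted over the 15216 genes tested in that class. A relation was called at an adjusted p below 0.05. Ifng was scarce, at 4 to 56 counts in H2-Ea-expressing, 4 to 170 in Cp-high and 0 to 80 in the remaining libraries. The library at 0, labelled CT26 anti-PD-1 40, allows up to 0.123 CPM from counting error. The libraries are separate tumors according to the labels, and p values measure only the spread between these samples.

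Cd274 rose with Ifng across the tumors of the Cp-high and remaining classes. In the remaining libraries, Cd274 went from 17.8 CPM in the library with no Ifng count to 60.6 CPM in the library with the most Ifng (2.60 CPM), with r = 0.963 (n = 12, permutation p = 1e-05, the smallest that 100000 permutations can give, adjusted p = 0.00491) and rho = 0.944 (permutation p = 2e-05). Without the 2 libraries farthest from the class median of Ifng, r was 0.950 (permutation p = 0.0002, n = 10). In Cp-high libraries, r was 0.867 (n = 12, permutation p = 0.00018, adjusted p = 0.0115) and rho 0.937 (permutation p = 2e-05), and r was 0.941 (permutation p = 6e-05) without the 2 farthest. Both relations kept an unadjusted p under 0.05 without those libraries. In H2-Ea-expressing libraries r was of similar size, 0.866 (n = 11, permutation p = 0.00044), with rho = 0.882 (permutation p = 0.00063) and r = 0.873 (permutation p = 0.0032) without the 2 farthest, but the adjusted p was 0.137 and it was not called. With the library labelled PancO2 anti-PD-1 71 included, r in that class fell to 0.632. That library had 204 CPM of Cd274 at 1.27 CPM of Ifng, from 10 counts.

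**Figure D3:**
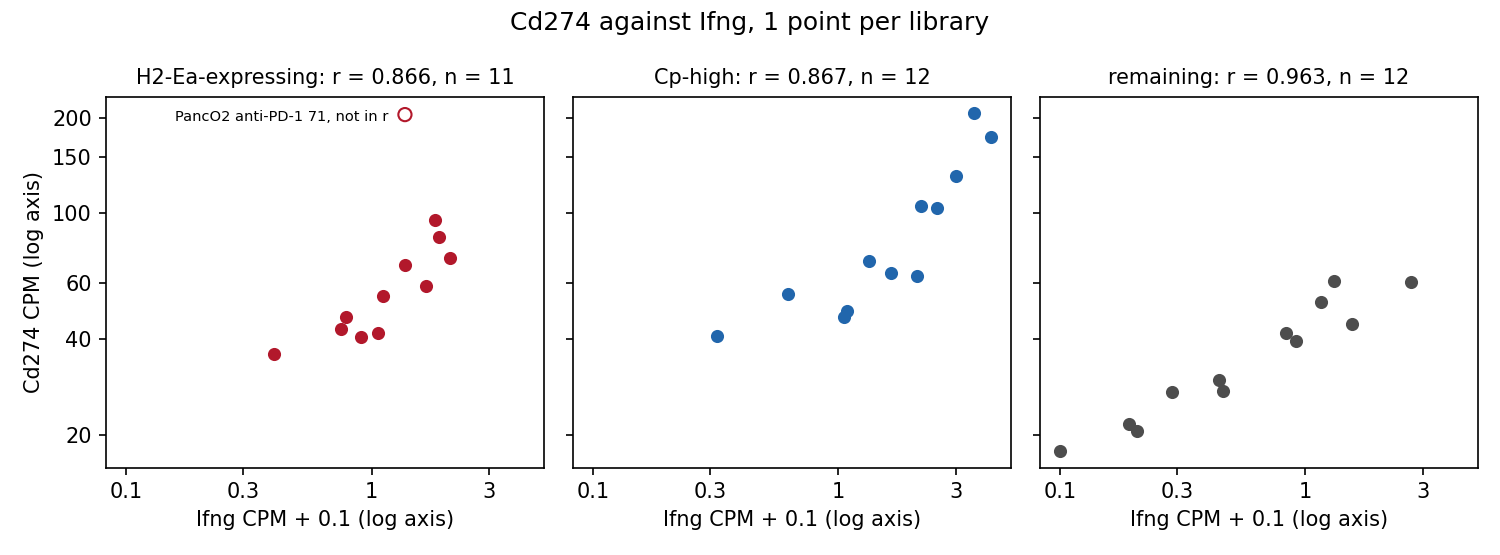
Cd274 (CPM, log axis) against Ifng (CPM with an offset of 0.1, log axis) in the libraries of each class; each point is 1 library and the open point (PancO2 anti-PD-1 71) is left out of r. In H2-Ea-expressing, Cp-high and remaining libraries r is 0.866, 0.867 and 0.963, and the adjusted p is 0.137, 0.0115 and 0.00491.

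Of the other members, Pdcd1lg2, Cd86 and Tnfsf9 also rose with Ifng in at least 1 class. Pdcd1lg2 was called in the remaining libraries (r = 0.906, permutation p = 8e-05, adjusted p = 0.0121, rho = 0.860 with permutation p = 0.00067), where r was 0.941 (permutation p = 0.00027) without the 2 farthest. In Cp-high libraries it had r = 0.775 and narrowly missed (adjusted p = 0.0512). Cd86 was called in Cp-high libraries (r = 0.846, permutation p = 0.00027, adjusted p = 0.0141, rho = 0.909 with permutation p = 9e-05) and in the remaining libraries (r = 0.852, permutation p = 0.00054, adjusted p = 0.0388, rho = 0.867 with permutation p = 0.00058). Without the 2 farthest libraries its r was 0.824 (permutation p = 0.00437) and 0.837 (permutation p = 0.00298). Tnfsf9 was called in Cp-high libraries (r = 0.875, permutation p = 0.00025, adjusted p = 0.0136, rho = 0.902 with permutation p = 0.0001), and r was 0.773 (permutation p = 0.0102) without the 2 farthest. All these relations kept an unadjusted permutation p under 0.05 without those 2 libraries, but after adjustment only Cd274 was still called in Cp-high libraries and no member in the remaining libraries.

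In total, 3 of 10 members were called in Cp-high libraries (Cd274, Cd86 and Tnfsf9), beside 7.51% of genes, and 3 of 10 in the remaining libraries (Cd274, Pdcd1lg2 and Cd86), beside 1.64% of genes. In H2-Ea-expressing libraries 0 of 10 members and 0% of genes were called, with 1 member (Cd274) and 1139 genes at an unadjusted permutation p under 0.05. All these calls were positive. Without the library labelled MC38 IgG 2, Cd274 alone was called in the remaining libraries. The median r of the members with Ifng was 0.157 in H2-Ea-expressing, 0.676 in Cp-high and 0.540 in the remaining libraries, beside medians of -0.0398, -0.0453 and -0.0235 over all genes. Nectin2 had a negative r with Ifng in each class (-0.363, -0.616 and -0.170, lowest adjusted p = 0.152). By Spearman's rho it was called as negative in Cp-high libraries (rho = -0.797, n = 12, permutation p = 0.0031, adjusted p = 0.0398). Vsir lay between -0.418 and 0.0514. Icosl had r = -0.547, 0.162 and 0.815 in H2-Ea-expressing, Cp-high and remaining libraries, none of them called (adjusted p = 0.734, 0.774 and 0.0825). By Spearman's rho Icosl was called in the remaining libraries (rho = 0.881, n = 12, permutation p = 0.00039, adjusted p = 0.0337). Pvr had 0.336, 0.625 and 0.169, Cd80 -0.210, 0.728 and 0.574, and Lgals9 0.183, 0.532 and 0.506.

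**Figure D4:**
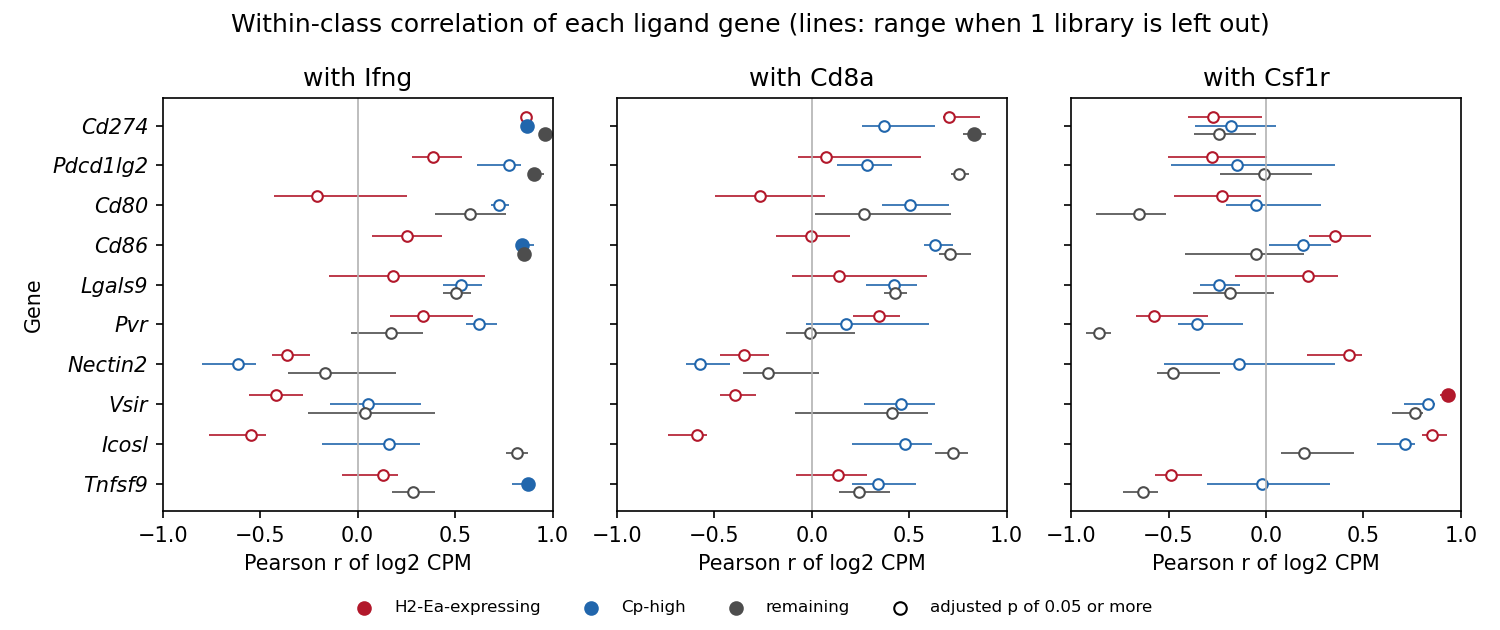
Pearson r of each ligand gene with Ifng, Cd8a and Csf1r within each class (log2 CPM, n = 11, 12 and 12 libraries); filled points have an adjusted permutation p below 0.05, and lines span the r values found when 1 library is left out. The filled points are Cd274, Pdcd1lg2, Cd86 and Tnfsf9 against Ifng, Cd274 against Cd8a and Vsir against Csf1r.

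Against Cd8a, 1 of 10 members was called in the remaining libraries, beside 1.49% of genes. It was Cd274 (r = 0.830, n = 12, permutation p = 0.00022, adjusted p = 0.0204, rho = 0.860 with permutation p = 0.00062), and r was 0.888 (permutation p = 0.00122) without the 2 libraries farthest in Cd8a. The call was lost in turn without MC38 IgG 2 (r = 0.806), MC38 anti-CTLA4 11 (r = 0.824) and PancO2 IgG 49 (r = 0.826), and Pdcd1lg2 joined it without CT26 anti-PD-1 41. Cd8a itself ran from 0.851 to 36.3 CPM there, the widest fold range of the classes, and followed Ifng with r = 0.865. Against Cd8a, 0 of 10 members and 0% of genes were called in H2-Ea-expressing libraries (1 member and 951 genes unadjusted) and 0 of 10 and 0% in Cp-high libraries (1 member and 720 genes unadjusted). Cd274 had r = 0.705 in H2-Ea-expressing and 0.370 in Cp-high libraries.

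Against Csf1r, Vsir was the only member called, in the H2-Ea-expressing libraries (1 of 10, beside 0.802% of genes). There Vsir went from 26.5 CPM at 85.8 CPM of Csf1r to 55.7 CPM at 207 CPM of Csf1r, with r = 0.933 (n = 11, permutation p = 6e-05, adjusted p = 0.0285) and rho = 0.873 (permutation p = 0.00102). Without the 2 libraries farthest in Csf1r, r was 0.848 (permutation p = 0.00228, n = 9). The call was lost with Spearman's rho, with TMM library sizes, without those 2 libraries, and without CT26 IgG 27, CT26 anti-CTLA4 35, PancO2 anti-CTLA4 62 or PancO2 anti-PD-1 64 in turn. In Cp-high libraries Vsir had r = 0.831 (adjusted p = 0.223), and in the remaining libraries 0.765 (adjusted p = 0.0719). In these classes 0 of 10 members were called, beside 0% and 0.164% of genes, with 2 and 4 members and 1685 and 2258 genes at an unadjusted permutation p under 0.05. Icosl had r = 0.852 with Csf1r in H2-Ea-expressing libraries (adjusted p = 0.0691), 0.714 in Cp-high and 0.195 in the remaining libraries. Pvr had a negative r in each class, -0.577, -0.354 and -0.859, the last with an adjusted p of 0.0538. Cd274 did not follow Csf1r in any class, with r between -0.273 and -0.180.

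**Figure D5:**
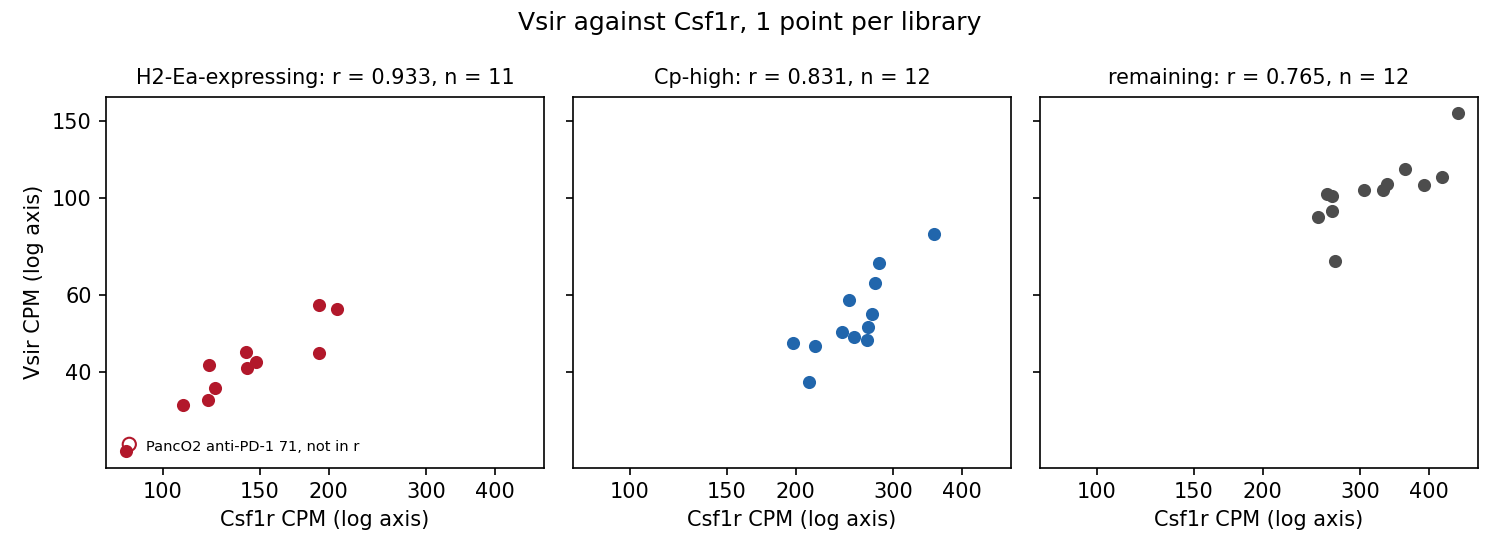
Vsir against Csf1r (both CPM, log axes) in the libraries of each class; each point is 1 library and the open point (PancO2 anti-PD-1 71) is left out of r. In H2-Ea-expressing, Cp-high and remaining libraries r is 0.933, 0.831 and 0.765, and the adjusted p is 0.0285, 0.223 and 0.0719.

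The same relations were fitted as slopes in 1 edgeR model over 35 libraries, which shares its estimate of the spread between the classes. The test of each class's own slope was added after the correlations had been seen. In that model log2 Cd274 rose per unit of log2 Ifng by 0.56 ± 0.13 (SE) in H2-Ea-expressing (adjusted p = 0.0535), 0.61 ± 0.08 in Cp-high (adjusted p = 1.89e-06) and 0.39 ± 0.06 in the remaining libraries (adjusted p = 3.44e-05). For Ifng, the slopes of 6 of 10 members were called in Cp-high libraries (Cd274, Pdcd1lg2, Cd80, Cd86, Pvr and Tnfsf9), beside 12.8% of genes, 3 of 10 in the remaining libraries (Cd274, Pdcd1lg2 and Cd86), beside 2.56%, and 0 of 10 in H2-Ea-expressing libraries, beside 0.189%. For Cd8a, 1 of 10 was called in the remaining libraries (Pdcd1lg2, slope 0.81 ± 0.17), beside 2.11% of genes, 0 of 10 in Cp-high libraries, beside 0.189%, and 0 of 10 in H2-Ea-expressing libraries, beside 0.0548%. Cd274, called against Cd8a by correlation in the remaining libraries, was not called by its slope (0.32 ± 0.10, adjusted p = 0.120 by edgeR). Pdcd1lg2 had not been called there by correlation (adjusted permutation p = 0.0979). For Csf1r, Vsir alone was called in each class, with slopes of 0.73 ± 0.14 in H2-Ea-expressing libraries (beside 0.931% of genes), 1.02 ± 0.21 in Cp-high libraries (beside 0.907%) and 0.68 ± 0.16 in the remaining libraries (beside 0.444%).

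Differences in slope between the classes were tested directly. For Ifng, 0 of 10 members were called by edgeR, beside 0.907% of genes, with 4 members (Cd80, Cd86, Icosl and Tnfsf9) at an unadjusted p under 0.05. Tnfsf9 came closest, with slopes of 0.04 ± 0.12 in H2-Ea-expressing, 0.45 ± 0.08 in Cp-high and 0.05 ± 0.06 in the remaining libraries (adjusted p = 0.0505), and was called when counts were scaled by library size only. For Cd8a, 0 of 10 members and 0% of genes were called, with Icosl at an unadjusted p under 0.05. For Csf1r, 0 of 10 members were called, beside 0.0122% of genes, and 0 members had an unadjusted p under 0.05. A relation called in one class and not in another was thus not shown to differ between them.

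The receptors of these ligands and the interferon-gamma response were read from the same tests. Of 16 interferon-gamma response genes, 13 rose with Ifng in Cp-high libraries and 11 in the remaining libraries, and 0 were called in H2-Ea-expressing libraries, where the median r was 0.791. Examples were the class II transactivator Ciita (r = 0.960 in Cp-high, adjusted p = 0.00338), the chemokine Cxcl9 (0.950, adjusted p = 0.00338) and the transcription factor Irf1 (0.955 in the remaining libraries, adjusted p = 0.00491). Of 9 receptors tested, Icos was called in Cp-high libraries (r = 0.885, adjusted p = 0.00941), and Pdcd1 (0.876, adjusted p = 0.0118), Cd226 (0.894, adjusted p = 0.0178) and Cd96 (0.876, adjusted p = 0.0230) in the remaining libraries. No receptor was called in H2-Ea-expressing libraries. Of 12 other ligands of T cell receptors, Cd40, the costimulatory receptor of antigen-presenting cells, was called in Cp-high (r = 0.847, adjusted p = 0.0203) and in the remaining libraries (0.901, adjusted p = 0.0121). T cell markers were called in 8 of 9 cases in the remaining libraries and in 0 of 9 in both other classes. In Cp-high libraries 2 of 5 NK cell markers rose with Ifng (Klrk1, r = 0.907, adjusted p = 0.00621, and Gzma, 0.820, adjusted p = 0.0308), as did 2 of 9 macrophage markers (Itgam, 0.854, adjusted p = 0.0184, and Msr1, 0.767, adjusted p = 0.0441). There 2 of 5 endothelial markers fell with Ifng (Emcn, -0.827, adjusted p = 0.0246, and Cdh5, -0.811, adjusted p = 0.0274). In the remaining libraries Klrk1 alone was called among these 3 lists (0.864, adjusted p = 0.0359), and none was called in H2-Ea-expressing libraries. Of 7 dendritic cell markers, Itgax was called in Cp-high libraries (r = 0.780, adjusted p = 0.0391) and Batf3 and Xcr1 in the remaining libraries (0.889 and 0.906). Against Csf1r, 5 of 8 macrophage markers were called in H2-Ea-expressing libraries, among them C1qa (r = 0.960, adjusted p = 0.0217) and Msr1 (0.954, adjusted p = 0.0217), and 0 of 8 in both other classes. The part of these cells in the relations of the ligands was not tested.

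The genes most like each member were ranked by the lowest of the 3 within-class r values, over 11, 12 and 12 libraries, as a description. The pattern of Cd274 was closest to those of the interferon-inducible GTPases Igtp (lowest r = 0.945), Gbp2 (0.936) and Gbp4 (0.934), above any value reached by another member. Lgals9 was closest to Lgals3bp (0.791) and to the antiviral GTPase Mx1 (0.743). Cd86 was closest to Cd40 (0.806) and the leukocyte glycoprotein Cd52 (0.787). Pvr was closest to the prostaglandin synthase Ptgs2 (0.842) and the nuclear factors Csrnp1 (0.826) and Maff (0.820), and Cd80 to the growth factor Hbegf (0.729) and the phosphatase Dusp5 (0.699). Vsir was closest to Rassf4 (0.839), to Inpp5d (0.782), the lipid phosphatase of blood cells, and to Mertk (0.769), a receptor with which macrophages take up dying cells. Icosl was closest to Rgs2 (0.804) and Ppfia4 (0.777), Tnfsf9 to Pafah1b3 (0.793) and Ugdh (0.763), and Pdcd1lg2 to the cytokine receptor chain Il2rg (0.697). Nectin2 had no close partner, with Pdia6 first at 0.511.

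Among the members themselves, 17 of 45 pairs had r above 0 in all 3 classes, 7 had r below 0 in all 3 and 21 differed in sign. The neighbours Cd274 and Pdcd1lg2 had r = 0.631, 0.745 and 0.911 in H2-Ea-expressing, Cp-high and remaining libraries. Pvr and Tnfsf9 moved together in each class (0.575, 0.817 and 0.815), as did Pvr and Cd80 (0.512, 0.860 and 0.661), and Vsir and Icosl had 0.856, 0.811 and 0.257. Pvr and Vsir ran opposite in each class (-0.648, -0.370 and -0.713). Both genes of a pair were read from the same libraries, whose depth and tissue composition varied within a class, and no p is given.

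By the labels, no ligand was called between models or treatments. Label strain and transcript mismatched in 16 of 36 libraries, and 8 of 9 labelled groups held all 3 classes. These comparisons therefore cannot show whether a model or a treatment changed a ligand. In 11 comparisons by edgeR, 0 of 10 members and 0% of the 16285 to 17213 genes tested were called, with 25 to 912 genes at an unadjusted p under 0.05. Limma-voom called 0 genes in each, and DESeq2 called 0 to 9 genes and 0 members. The comparisons within a model share their IgG libraries. The lowest unadjusted p values of members were in the libraries labelled PancO2, where anti-PD-1 was set against IgG. Cd274 measured 55.5, 84.3, 173 and 204 CPM after anti-PD-1 and 52.3, 60.9, 70.7 and 95.4 CPM after IgG. The upper 2 treated libraries lay above all IgG libraries and the lower 2 within their range. The means were 129 ± 70.8 and 69.8 ± 18.6 CPM (SD, n = 4 each), and the log2 fold change was 0.94 ± 0.39 (SE, adjusted p = 0.806 by edgeR). The 204 CPM belonged to PancO2 anti-PD-1 71, the library with 15.7% mitochondrial counts, and without it the log2 fold change of Cd274 was 0.62. With a term for the 3 classes it was 0.65. Vsir measured 26.5, 27.4, 37.9 and 46.7 CPM after anti-PD-1 and 42.2, 47.4, 102 and 104 CPM after IgG. Of the treated libraries, 3 lay below all IgG libraries, and the log2 fold change was -1.05 ± 0.35 (SE, adjusted p = 0.806 by edgeR). The group labelled anti-PD-1 held 2 H2-Ea-expressing and 2 Cp-high libraries, and the IgG group 1, 1 and 2 libraries of the H2-Ea-expressing, Cp-high and remaining classes, so label and class were partly confounded. Within the H2-Ea-expressing class, Vsir measured 26.5 and 27.4 CPM after anti-PD-1, the latter in PancO2 anti-PD-1 71, and 42.2 CPM after IgG. Within the Cp-high class it measured 37.9 and 46.7 CPM against 47.4 CPM. Cd274 measured 84.3 and 204 CPM against 95.4 CPM in the first class and 55.5 and 173 CPM against 70.7 CPM in the second. Its treated libraries thus lay on both sides of the IgG library in each class. With 1 IgG library in each of these classes, treatment within a class was not tested. These 2 members were the only ones with an unadjusted p under 0.05 in any of the 11 comparisons.

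Between labelled models under IgG, the largest difference of a member was in Pdcd1lg2. It measured 1.13 ± 0.792 CPM in libraries labelled CT26 and 2.54 ± 1.84 CPM in libraries labelled MC38 (SD, n = 4 each, log2 fold change -1.15 ± 0.65 SE, adjusted p = 0.9998 by edgeR). Over all 36 libraries with class as a term, Cd274 changed by -0.05 ± 0.31 (SE, log2) after anti-PD-1 and by -0.16 ± 0.30 after anti-CTLA4, neither of them called by edgeR. Without PancO2 anti-PD-1 71 the change of Cd274 after anti-PD-1 was -0.35. Cd80 and Cd86, the ligands of the antibody target CTLA4, were not called between libraries labelled anti-CTLA4 and IgG in any labelled model. Because labels and expression mismatch, this does not show that the treatment left them unchanged.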

How the data were processed

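Poly-A selected RNA of 36 tumors was sequenced. The labels name a TruSeq V2 kit and the methods a stranded KAPA kit, and which was used was not resolved. The authors deposited unnormalized counts of reads per Ensembl gene, obtained by alignment to mm10 with TopHat and Bowtie and assignment with HTSeq (version 07.2 per the labels). The strand setting and Ensembl release are not given in the sources used here. The 5 summary lines, which held 44.8% to 63.4% of the listed reads in 35 libraries and 86.5% in PancO2 anti-PD-1 71, were left out of library sizes. Each library was mapped to 1 of 9 labelled groups of 4 by its title. In 54 within-group pairs no library was a duplicate (lowest chi-square 15.6 per gene).

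CPM was computed over the remaining counts. Classes were set at 10 CPM of H2-Ea-ps and 1000 CPM of Cp. Correlations used log2 CPM (prior count 2), genes above 1 CPM in at least 4 libraries, 100000 two-sided permutations and Benjamini-Hochberg adjustment. Labelled groups and slopes were tested on the counts with edgeR 4.0.16 (quasi-likelihood, TMM, filterByExpr, two-sided), with DESeq2 1.42.0 and limma-voom 3.58.1 as alternatives. Scripts were tested on simulated data. Floors cover counting error only. Values after ± are the SD between libraries or the SE of the edgeR fit, which includes the spread between libraries. Coordinates are from GENCODE vM21 on GRCm38, and promoters from RefSeq on GRCm38.p6. Of 119 genes in the lists, 118 were found.

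The members, classes, lists and tests were chosen with earlier results of these data known. Named genes were the members, the class and measure genes, up to 4 genes per list with the largest r, and up to 3 genes most like each member.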

Additional observations from a re-analysis of the deposited data

Results flagged for a closer look

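In groups of 4 labelled libraries, 1 library stood far from the other 3 in 10 of 90 sets of member and group, where chance alone would mark 4.5. In all 10 sets, the marked library was the only one of its class in the labelled group. As 8 of 9 groups of 4 held all 3 classes, libraries alone in their class were frequent. The part of class in these gaps was not tested.

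Cd274 measured 206 CPM in the library labelled MC38 anti-CTLA4 8 and 41.9 to 59.0 CPM in the other 3 of its group. Cd80 measured 29.2 CPM in CT26 anti-PD-1 42 (others 4.33 to 6.21 CPM) and 28.1 CPM in PancO2 IgG 54 (others 6.83 to 7.98 CPM). Cd86 was low at 16.3 CPM in the same PancO2 IgG 54 (others 23.7 to 25.2 CPM). Pvr measured 183 CPM in CT26 IgG 27 (others 52.0 to 67.6 CPM), 234 CPM in PancO2 IgG 54 (others 65.0 to 88.0 CPM) and 148 CPM in PancO2 anti-CTLA4 62 (others 50.0 to 55.3 CPM). Tnfsf9 measured 12.3 CPM in CT26 IgG 27 (others 3.95 to 5.05 CPM). In MC38 IgG 2, Nectin2 measured 38.2 CPM (others 17.7 to 21.0 CPM) and Vsir 116 CPM (others 36.9 to 49.6 CPM). The 10 gaps lay in 6 libraries, of which PancO2 IgG 54 had 3.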

How the results depend on the processing

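Of 440 values recomputed with 1 library left out, 416 were kept, and of 284 under other settings, 268 were. Fold changes and r values were kept if direction and side of the threshold held, and counts of members if within 1.5 times. Class medians were kept if they moved by less than the standard deviation of their class. Many values were counts of 0 members in tests that called no gene, so these pooled shares do not measure how stable the calls were. With 1 library left out, the count of members changed in 4 of 12 cases for Cd8a in the remaining libraries. For Csf1r in H2-Ea-expressing libraries it changed in 4 of 11. The causes of the changes were not tested. Against Ifng, Cp-high libraries gave 6 members with Spearman's rho (Cd274, Pdcd1lg2, Cd80, Cd86, Nectin2 and Tnfsf9, of which Nectin2 was negative) and with the edgeR slope test (Pvr in place of Nectin2), and 1 (Cd274) without the 2 libraries farthest from the median, in place of 3. The remaining libraries gave 0 without the 2 farthest, where Cd274 had r = 0.950 with Ifng and 0.888 with Cd8a. Against Csf1r, H2-Ea-expressing libraries gave 0 with rho, with TMM sizes and without the 2 farthest. The remaining libraries gave 1 with TMM sizes (Pvr) and 1 with the slope test (Vsir), and Cp-high libraries 1 with the slope test (Vsir). Against Cd8a, the remaining libraries gave 1 with the slope test, but it was Pdcd1lg2 in place of Cd274. A count taken as kept can thus hold other members. The slope test was chosen after seeing the data. With library size only, the slope on Ifng differed between classes for 1 member (Tnfsf9).

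With 1 library left out, the number of members called against Ifng was 2 to 4 in Cp-high and 1 to 3 in the remaining libraries (1 without MC38 IgG 2). Against Cd8a it was 0 to 2 in the remaining libraries (0 without MC38 IgG 2, MC38 anti-CTLA4 11 or PancO2 IgG 49, and 2 without CT26 anti-PD-1 41), where r of Cd274 ran from 0.777 to 0.893. Against Csf1r it was 0 to 1 in H2-Ea-expressing and 0 to 1 in the remaining libraries (1, Vsir, without CT26 IgG 24). The r of Cd274 with Csf1r in Cp-high libraries ran from -0.364 to 0.0490 (positive without MC38 anti-PD-1 18).

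The log2 fold change of Cd274 between labelled groups, never called, changed sign in 5 comparisons. It ran from -0.0542 to 0.81 for CT26 anti-CTLA4 over IgG (below 0 without CT26 anti-CTLA4 36), -0.61 to 0.17 for CT26 anti-PD-1 (above 0 without CT26 IgG 27, CT26 anti-PD-1 40 or 41), -0.50 to 0.64 for MC38 anti-CTLA4 (below 0 without MC38 anti-CTLA4 8), -0.93 to 0.0653 for MC38 anti-PD-1 (above 0 without MC38 IgG 7 or MC38 anti-PD-1 19) and -0.19 to 0.27 for PancO2 over MC38 (below 0 without MC38 IgG 2, MC38 IgG 3 or PancO2 IgG 54). Without a filter on low counts the last was -0.00883, and without the class term the changes over 36 libraries were 0.36 after anti-PD-1 and 0.0876 after anti-CTLA4. No paired analysis was possible because each mouse number belongs to 1 library. Ifng, at 0 to 170 counts, limits the precision of its relations.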
